A study of Mus musculus with 4 samples.

Results

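Plexins are transmembrane receptors for semaphorins, the guidance cues that steer growing axons. The accessible chromatin of 8 plexin genes (Plxna1, Plxna2, Plxna3, Plxna4, Plxnb1, Plxnb2, Plxnc1 and Plxnd1) was described in sorted cervical motor neurons of mouse embryos at day 12.5. The assay was ATAC-seq, which uses the Tn5 transposase to mark DNA that is open to it. A region was a stretch of overlapping peak intervals from any library. It was given to the protein-coding gene whose body held its midpoint, or else to the nearest body within 100 kb. By this rule the plexin genes held 260 of 165778 regions assigned to any gene (mm10).

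There were 4 libraries. In all of them the cells carried the transgenic ChAT::GFP reporter, driven by the choline acetyltransferase gene, and were sorted for GFP. The 2 control libraries came from control embryos and the 2 Hoxa5-deficient libraries from littermates deficient for the homeodomain factor Hoxa5. The submitters call them biological replicates. The labels give neither the allele nor the number of embryos behind a library, so a p-value here measures only the spread between these libraries. The design asks which open regions differ without Hoxa5. A higher or lower signal in sorted bulk cells may come from more open chromatin per cell or from more cells with that region open, and the assay cannot tell these apart.

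In plexin signalling, class A plexins pair with neuropilins to receive secreted class 3 semaphorins, while class B plexins mostly bind transmembrane semaphorins directly. Plxnc1 is the receptor of the membrane-anchored Sema7a, and Plxnd1 can bind Sema3e without a neuropilin. Inside the cell all plexins carry a GTPase-activating domain that acts on small GTPases and thereby loosens adhesion and collapses the growth cone. Motor axons use these receptors to fasciculate and to choose their paths in the limb and trunk.

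The lists held 165866 and 163016 peak summits in controls and 192771 and 206114 in Hoxa5-deficient libraries. The lowest local background recovered from each list, which scales with sequencing depth, was 5.43 and 4.39 tags in controls and 5.14 and 6.06 tags in Hoxa5-deficient libraries. Of 9 motor neuron markers, 9 and 8 had a peak within 1 kb of a gene end in controls and 7 and 7 without Hoxa5. Isl2 had one in both controls and Prph in control library 1 alone, and neither had one without Hoxa5. In list percentile, the rank of a peak within its own library, the shared peak of Chat and Slc18a3 was higher in both Hoxa5-deficient libraries (92.7 and 94.6, against 81.4 and 87.0), Isl2 and Lhx3 were lower in both, and the other 5 overlapped. Markers of other cells were open as well. All 8 neural progenitor markers had such a peak in every library, as did from 6 to 7 of 8 interneuron markers, 5 of 6 glial markers and 3 of 4 sensory neuron markers. Of 6 endothelial markers, 2, 2, 2 and 3 had one, with none in any library at Cdh5, Pecam1 or Tek. Of 6 blood and microglia markers, 2 and 2 had one in controls and 1 and 1 without Hoxa5, with none at Ptprc, Cx3cr1, Gata1 or Hbb-bs. Levels at some of these markers stood apart by genotype. Among all regions of the genome with a peak in every library, the ranks of the groups stood apart at 61.9%. They were higher without Hoxa5 at 29.1% and lower at 32.8%. These shares rest on ranks among the same shared regions in each library. The marker values are list percentiles with a missing peak as 0, which is another measure. Of the 8 interneuron markers 5 (Pax2, Lhx1, Lhx5, Lmx1b and Tlx3) had lower list percentiles in both Hoxa5-deficient libraries and none higher, and the summed percentile of the list, with a missing peak as 0, was 503 and 466 in controls and 342 and 391 without Hoxa5. Of the progenitor markers 4 (Sox2, Hes5, Pax6 and Notch1) were lower and 3 (Olig2, Dll1 and Vim) higher, with sums of 619 and 634 against 593 and 607. Of the glial markers 4, among them Olig1, were higher and 1 lower, with sums of 335 and 335 against 350 and 354. One endothelial marker (Cldn5) and 1 sensory marker (Pou4f1) were higher, and 2 blood markers (Csf1r and Spi1) lower, with sums of 163 and 160 against 171 and 178 for endothelium, 246 and 239 against 214 and 250 for sensory neurons, and 99.0 and 116 against 78.7 and 82.2 for blood. The part of these markers in the results below was not tested.

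RefSeq start windows (GRCm38.p6, 250 bases before to 50 after a start site) were matched for 6 of the 8 genes, as 7 windows; Plxna1 and Plxna4 were not matched. Each of the 7 windows lay under a region with a peak in every library. Below are 4 of them, 5′ to 3′ on the gene's strand. They are Plxna2 and Plxna3, a long and a compact class A gene, Plxnb1, whose start region was the sole one called different, and Plxnd1, whose start region ranked lowest. Capitals mark the GC box GGGCGG and the homeodomain core ATTA on either strand.

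Plxna2, chr1:194619579-194619878, plus strand: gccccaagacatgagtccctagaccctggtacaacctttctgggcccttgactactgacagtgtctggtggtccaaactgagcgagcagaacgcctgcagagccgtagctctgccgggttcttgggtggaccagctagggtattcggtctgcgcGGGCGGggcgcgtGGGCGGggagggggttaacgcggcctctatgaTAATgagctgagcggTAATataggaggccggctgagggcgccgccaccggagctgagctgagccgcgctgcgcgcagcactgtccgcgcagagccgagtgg

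Plxna3, chrX:74328816-74329115, plus strand: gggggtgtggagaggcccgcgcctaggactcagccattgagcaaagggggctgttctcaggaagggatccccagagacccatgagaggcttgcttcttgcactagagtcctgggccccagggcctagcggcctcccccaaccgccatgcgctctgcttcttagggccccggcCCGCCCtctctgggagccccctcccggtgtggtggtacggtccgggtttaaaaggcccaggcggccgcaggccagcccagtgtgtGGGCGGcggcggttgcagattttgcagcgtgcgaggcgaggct

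Plxnb1, chr9:109095186-109095485, plus strand: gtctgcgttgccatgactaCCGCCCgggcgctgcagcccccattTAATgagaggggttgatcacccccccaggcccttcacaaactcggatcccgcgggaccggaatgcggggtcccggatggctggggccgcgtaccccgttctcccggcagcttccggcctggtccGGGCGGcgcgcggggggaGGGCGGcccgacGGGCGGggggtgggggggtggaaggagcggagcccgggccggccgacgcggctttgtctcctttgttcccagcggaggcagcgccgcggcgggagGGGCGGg

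Plxnd1, chr6:115994956-115995255, minus strand: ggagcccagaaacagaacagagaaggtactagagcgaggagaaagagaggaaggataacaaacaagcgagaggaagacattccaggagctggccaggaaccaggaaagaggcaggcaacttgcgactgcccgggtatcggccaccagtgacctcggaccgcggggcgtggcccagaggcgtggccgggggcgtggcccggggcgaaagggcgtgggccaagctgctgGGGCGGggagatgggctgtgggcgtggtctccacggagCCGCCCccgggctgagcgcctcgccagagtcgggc

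The plexin start windows were rich in G and C. Their GC content ran from 61.7% in the inner Plxnb2 window to 74.7% in Plxnb1, against a median of 52.7% over 32851 RefSeq windows. They held from 15 to 36 CpG dinucleotides, against a median of 7. A GC box, the letters bound by Sp-family factors, occurred in 7 of 7 plexin windows and in 35.7% of all windows, with 5 copies in Plxnb1. The core ATTA, common to homeodomain factors including Hox proteins, occurred in 3 of 7 (2 copies in Plxna2) and in 58.0% of all windows. The longer letters TGATTGAT and TGATTTAT, known for Hox proteins with Pbx, were in none of the 7 and in 0.746% and 0.977% of all. TAATTA, a pair of homeodomain cores, was in none of the 7 and in 5.29% of all windows. The Onecut letters ATCGAT were in none of the 7 and in 0.925% of all, and the E-box CAGCTG in none of the 7 and in 16.3% of all. The palindrome of Nrf1 was in none of the 7 and in 0.971% of all. The palindrome of Ebf factors was found in the Plxnb1 window alone, and in 0.904% of all. Motifs were searched on both strands, and overlapping matches were counted. These are matches of letters only.

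The tags piled up at the summit of each peak were recovered as whole numbers from the deposited fold and p-value. At the start of Plxna2, a receptor for class 3 and class 6 semaphorins, they numbered 369 and 304 in controls and 374 and 577 without Hoxa5 (chr1:194619446-194620845). Ranked among the 65789 regions of the genome with a peak in every library, this region stood at percentiles 92.4 and 92.9 in controls and 92.4 and 94.0 without Hoxa5. It was the highest-ranked plexin region, and its rank ranges overlapped. At the start of Plxna3, a class A receptor that binds Sema3f with neuropilin 2, the tags numbered 186 and 178 in controls and 269 and 393 without Hoxa5 (chrX:74328566-74329692). Its percentiles of 87.5 and 89.0 in controls lay below those of 91.3 and 91.1 without Hoxa5, a difference that missed the threshold (limma adjusted p = 0.176). This was the single region of Plxna3, a gene of 16.4 kb.

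The start region of Plxnb1, a receptor for Sema4d, ranked lower without Hoxa5 (chr9:109094861-109096562). Its tags numbered 307 and 284 in controls and 220 and 343 without Hoxa5, values that overlapped. Its percentiles did not overlap, at 89.6 and 91.2 against 83.6 and 85.0. The difference in normal scores was -0.30 (SE 0.0859, limma adjusted p = 0.0247), and it stayed past the threshold without control library 1, but not without control library 2 (adjusted p = 0.0856), Hoxa5-deficient library 1 (0.123) or Hoxa5-deficient library 2 (0.0612), nor when peaks were ranked by fold (0.121). Each fit without 1 library leaves 1 library in a group. Such a p-value takes its spread from the other group and from all shared regions. Scaled to the depth of control library 1, the tags of Plxnb1 were 307 and 352 in controls and 233 and 308 without Hoxa5.

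Plxnb2, a receptor for class 4 semaphorins that is prominent in dividing neural cells, had 2 start windows and 4 regions, each found in all libraries. The outer start held 228 and 192 tags in controls and 230 and 354 without Hoxa5, at percentiles of 87.8, 87.6, 86.7 and 88.0 (chr15:89180190-89181310). The inner start held 109 and 99 tags in controls and 100 and 154 without Hoxa5 (chr15:89172671-89174304). Its percentiles of 71.2 and 74.6 in controls lay above those of 65.5 and 67.1 without Hoxa5. Neither start passed the test (limma adjusted p = 0.915 and 0.251).

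Plxnc1 had 136 and 156 tags at its start in controls and 183 and 299 without Hoxa5 (chr10:94943423-94945707). Its percentiles overlapped, at 71.0 and 81.0 against 77.3 and 79.7 (limma adjusted p = 0.681). The start of Plxnd1 was weaker, with 95 and 74 tags in controls and 60 and 104 without Hoxa5 (chr6:115993455-115995425). Its percentiles were 64.6 and 63.2 in controls and 47.1 and 56.8 without Hoxa5 and did not overlap, but the difference missed the threshold (limma adjusted p = 0.168).

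For Plxna4 and Plxna1, class A receptors for Sema3a signalling, the region over the upper-coordinate end was strong. At Plxna4 it held 170 and 179 tags in controls and 203 and 259 without Hoxa5 (chr6:32587206-32588745). At Plxna1 the region there was given by the rule to Gm40415, a short gene that overlaps this end, and so was not counted among the 260 (chr6:89361143-89363374). It held 215 and 203 tags in controls and 253 and 362 without Hoxa5. Neither passed the test on ranks (limma adjusted p = 0.738 at Plxna4 and 0.800 at Plxna1). Of the 16 ends of the 8 gene bodies, 8 had a peak within 1 kb in all 4 libraries, 3 in a single library and 5 in none.

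The plexin genes differed widely in their number of regions. Plxna4, with a body of 444 kb, held 83 regions, more than 99.3% of the protein-coding genes had. Plxna2 held 71 over 197 kb and Plxnc1 46 over 154 kb. Plxna1 held 26, Plxnd1 20, Plxnb1 9, Plxnb2 4 and Plxna3 1. Per 100 kb of body, the density of regions inside ran from 6.10 in Plxna3 to 41.9 in Plxnd1, with 28.4 in Plxna2 and 17.1 in Plxna4. Of the 26 regions of Plxna1, 20 were outside the body, all on the lower-coordinate side. Of all plexin regions 24.6% lay outside the bodies, against 35.4% of all assigned regions. The farthest region kept lay 99.0 kb from Plxnc1, a peak of Hoxa5-deficient library 2 alone at list percentile 40.8. The nearest left out lay 100.1 kb from Plxna2, a peak of both controls at list percentiles 26.3 and 4.55.

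Most plexin regions were not called in every library. Of the 260, 72 had a peak in all 4 libraries (27.7%, against 34.7% of all assigned regions), 34 in 3 libraries (13.1%, against 9.66%), 12 in 1 library of each genotype (4.62%, against 4.48%) and 105 in a single library (40.4%, against 38.5%). The libraries called 152 and 134 of them in controls and 139 and 168 without Hoxa5. As a share of the assigned regions of each library, the plexin genes took 0.160% and 0.147% in controls and 0.137% and 0.151% without Hoxa5. The group means were 0.153% ± 0.00921 and 0.144% ± 0.00990 (SD, n = 2 each), and the ranges overlapped (two-sided exact permutation test, p = 0.667, where the smallest p that 4 libraries allow is 0.333).

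**Figure D1:**
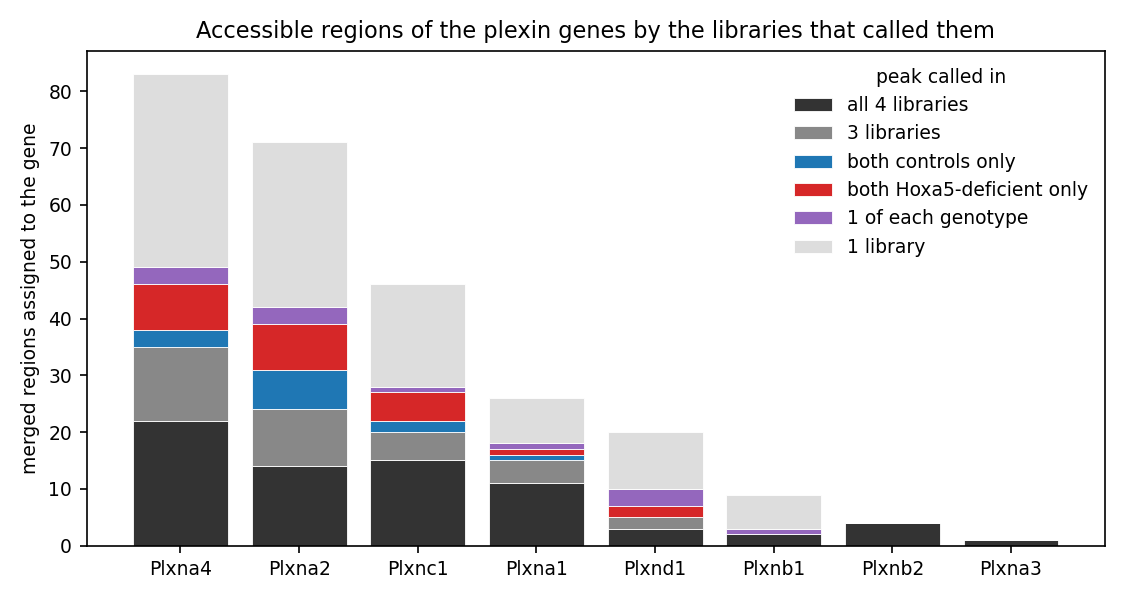
Bars give the number of merged regions (vertical axis) assigned to each of the 8 plexin genes, split by the libraries in which a peak was called. Plxna4 has 83 regions and Plxna2 71, while all 4 regions of Plxnb2 and the 1 region of Plxna3 were called in every library.

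Plxna2 regions numbered 45 and 36 in controls and 32 and 38 without Hoxa5. Per 10000 assigned regions this was 4.74 and 3.95 in controls and 3.15 and 3.42 without Hoxa5, so the groups did not overlap on that scale (exact permutation p = 0.333, the smallest possible; Benjamini-Hochberg 0.889 over 8 genes). Plxna3 and Plxnb2 also stood apart on that scale, but with the same 1 and 4 regions in every library. The remaining 5 genes overlapped. Plxna4 had 40 and 46 regions in controls and 47 and 56 without Hoxa5, and Plxnc1 28 and 21 against 28 and 32. Per 10000 assigned regions the means were 4.63 ± 0.590 and 4.83 ± 0.283 for Plxna4 and 2.63 ± 0.455 and 2.82 ± 0.0823 for Plxnc1 (SD, n = 2 each). The protein-coding genes closest to Plxna4 in region counts over the 4 libraries, by Euclidean distance of log2(regions + 1), were Hs6st3 (40, 43, 50 and 55; distance 0.132), Ldlrad3 (0.137) and Nbea (0.167).

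Regions found in both controls and neither Hoxa5-deficient library (control-only) numbered 13 at the plexin genes, or 5.0%, against 3.5% of all assigned regions. Those found in both Hoxa5-deficient libraries and neither control (mutant-only) numbered 24, or 9.23%, against 9.16% of all assigned regions, so the mutant-only share was that of the background. When the same number of peaks was taken from every library, 15 of 237 plexin regions were control-only (6.33%, against 5.73% of all). Then 10 were mutant-only (4.22%, against 6.75% of all), which reverses the order of the plexin counts. When regions were built again from peaks at a −log10 q of at least 5, the plexin genes held 123. Of these 6 were control-only (4.88%, against 4.44% of all) and 13 mutant-only (10.6%, against 12.1%). A missing peak means that the signal fell under the authors' threshold, not that it was absent, and the weakest plexin peaks had from 10 to 12 tags.

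Plxna2 held 7 of the 13 control-only regions, beside 8 mutant-only ones. These were 9.86% and 11.3% of its 71, against 3.5% and 9.16% of all assigned regions. The strongest plexin control-only region lay 127 kb into Plxna2, inside the gene (chr1:194746762-194747222), with 56 and 41 tags in controls and no peak without Hoxa5. It stood at list percentiles of 76.0 and 74.3. The next in Plxna2 lay 137 kb into the gene (chr1:194756842-194757190), with 30 and 33 tags. A pair of control-only regions lay side by side below the gene, 31.5 and 32.1 kb from the body, with 17 and 16 tags and with 21 and 14 tags (chr1:194588011-194588631 and chr1:194587534-194587861). Another, at chr1:194663033-194663365 with 28 and 13 tags, had a mutant-only region beside it (chr1:194663439-194663777, with 12 and 25 tags). The remaining control-only regions of Plxna2 had 20 and 17 tags (chr1:194630509-194631013) and 15 and 15 tags (chr1:194780596-194781366).

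The mutant-only regions of Plxna2 were weaker. The best of them lay 163 kb into the gene (chr1:194782421-194782795), with 22 and 27 tags at list percentiles of 45.3 and 47.7. It was followed by 88.1 kb (17 and 27 tags), and by regions 10.5 kb above the body (14 and 23 tags) and 58.7 kb below it (16 and 15 tags). The other 4 had from 12 to 31 tags and a lower list percentile of at most 8.01. Plxna2 also held 10 regions with a peak in 3 libraries, which belong to neither kind and were not in the limma fit. The strongest lay 121 kb into the gene (chr1:194740660-194741225), with no peak in control library 1. It had 12 tags in control library 2 and 95 and 118 without Hoxa5. Its list percentiles there were 9.28, 88.1 and 86.9.

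Plxnc1 had 5 mutant-only and 2 control-only regions, or 10.9% and 4.35% of its 46, near the 9.16% and 3.5% of all assigned regions. The strongest plexin mutant-only region lay in Plxnc1, 11149 bp from its start site (chr10:94933074-94933696), with 52 and 75 tags without Hoxa5 at list percentiles of 77.6 and 80.4 and no peak in either control. Another, 34293 bp from it (chr10:94910123-94910552), had 32 and 58 tags. The other 3 had from 14 to 18 tags. The control-only regions of Plxnc1 had 40 and 28 tags at 90.6 kb above the body (chr10:95035353-95035847) and 15 and 16 tags inside it (chr10:94917799-94918128).

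Plxna4 had 8 mutant-only and 3 control-only regions, or 9.64% and 3.61% of its 83, also near those shares. Its highest mutant-only regions lay 423 kb into the body with 20 and 35 tags (chr6:32567400-32568186), at 323 kb with 20 and 44 tags (chr6:32467068-32467560), at 218 kb with 19 and 24 tags (chr6:32362264-32362793), and 24.8 kb above the body with 18 and 24 tags (chr6:32612758-32613317). The control-only regions had 20 and 17 tags (chr6:32261472-32261747), 26 and 18 tags (chr6:32373899-32374229) and 23 and 13 tags (chr6:32559015-32559415). Plxnd1 had 2 mutant-only regions, with 21 and 21 tags (chr6:115984902-115985193) and with 17 and 16 tags (chr6:115963174-115963503), and no control-only region. Plxna1 had 1 of each kind: a control-only region 78.8 kb below the body with 36 and 36 tags (chr6:89237386-89237563) and a mutant-only region 61.9 kb below with 15 and 18 tags (chr6:89254310-89254588). Plxna3, Plxnb1 and Plxnb2 had none of either kind.

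**Figure D2:**
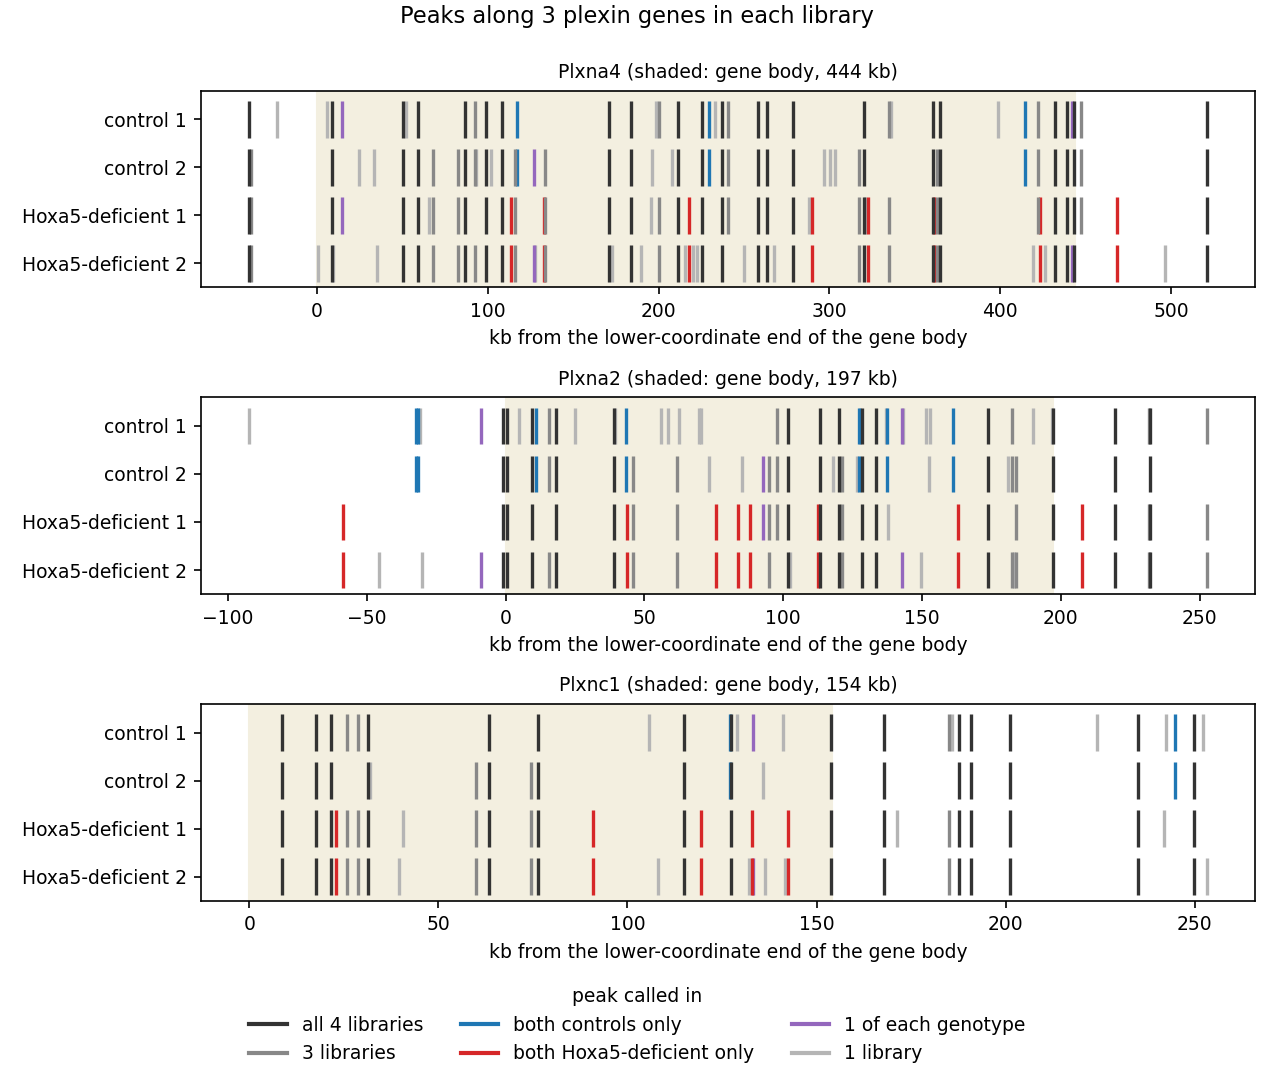
Each row is a library and each bar a region called in it, by distance in kb from the lower-coordinate end of the gene body (shaded) of Plxna4, Plxna2 and Plxnc1; colours give the libraries that share the region. The 7 control-only regions of Plxna2 and the 8 mutant-only regions of Plxna4 lie mostly inside the bodies, between regions common to all 4 libraries.

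The 72 regions shared by all libraries allowed a test of strength. Peaks were ranked by −log10 p among the same 65789 shared regions in each library, the ranks were turned into normal scores, and limma was fitted to all of them. Of the 72 plexin regions 12 passed an adjusted p of 0.05, or 16.7%, against 20.6% of all shared regions. They were 7 regions higher without Hoxa5, against a background of 11.1%, and 5 lower, against 9.53%. The median plexin region moved by -1.26 percentile points without Hoxa5, and the median of all shared regions by -0.53 points. The ranks of the groups did not overlap at 44 of the 72, with 23 higher and 21 lower (against 61.9% of all shared regions in either direction, 29.1% higher and 32.8% lower). The 12 calls rest on limma's prior fitted with a trend over mean rank. With a prior without that trend, none of the 72 passed, against 4.05% of all shared regions. The 12 then had limma adjusted p from 0.0609 to 0.209. In each fit, with or without the trend, 20 of the 72 (27.8%) had an unadjusted p under 0.05. Of all shared regions 34.6% did so with the trend and 28.5% without it.

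Of the 7 higher regions, 3 lay below Plxna1, between 34.6 and 73.7 kb from its body. The first, 67.3 kb from the body (chr6:89248400-89249650), had 42 and 37 tags in controls and 107 and 171 without Hoxa5. Its percentiles rose from 49.9 and 52.6 to 75.4 and 77.8 (difference in normal scores 0.70, SE 0.125, limma adjusted p = 0.00176). It kept its direction in each of the 4 fits that left out a library, which leave 1 library in a group. The second, at 73.7 kb (chr6:89242111-89243162), had 43 and 43 tags against 82 and 141 (limma adjusted p = 0.0157). The third, at 34.6 kb (chr6:89281350-89282163), had 79 and 70 tags against 143 and 255 (limma adjusted p = 0.0105). These last 2 were not called without Hoxa5-deficient library 2, with adjusted p of 0.120 and 0.103. At all 3 the libraries of the genotypes stood apart, and after Plxna1 the next protein-coding gene was Gm40415 at its far end. Ranked by fold, none of the 3 passed (adjusted p from 0.0675 to 0.151). A region 80.6 kb below the body (chr6:89235346-89236123), the highest-ranked region of Plxna1, had 184 and 157 tags in controls and 152 and 310 without Hoxa5 (limma adjusted p = 0.782). Inside the body a region at 35.6 kb fell, from percentiles of 71.1 and 67.4 to 48.6 and 48.7 (chr6:89351431-89352398; 107 and 74 tags against 52 and 77; limma adjusted p = 0.0156). Its tags overlapped between genotypes before scaling for depth. Scaled to the depth of control library 1 they did not, at 107 and 91.6 in controls and 55.0 and 69.0 without Hoxa5. The call ended without control library 1 or with ranks by fold (limma adjusted p = 0.196).

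At Plxnc1 a region 95.5 kb above the body rose (chr10:95039981-95041088). It had 48 and 40 tags in controls and 99 and 169 without Hoxa5, at percentiles of 53.3 and 54.3 against 74.1 and 78.6 (difference in normal scores 0.62, SE 0.124, limma adjusted p = 0.00321). The region kept its direction in each fit that left out a library. A neighbour at 81.0 kb fell, with 47 and 43 tags against 29 and 29 (chr10:95025515-95026443; limma adjusted p = 0.0305), a call that ended without control library 2 (0.0822) or Hoxa5-deficient library 2 (0.129). The next protein-coding gene to both was Cradd, 134 and 149 kb away. The strongest region of Plxnc1 by list percentile lay inside the body (chr10:94905301-94906439), with 171 and 148 tags against 177 and 281, and its percentiles overlapped.

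Plxna4 had 2 regions that rose and 1 that fell, all inside the body. The one that fell, 211 kb into the body (chr6:32355414-32356161), had 85 and 46 tags in controls and 28 and 24 without Hoxa5. Its percentiles were 74.0 and 57.0 against 28.4 and 12.7 (difference in normal scores -1.26, SE 0.261, limma adjusted p = 0.00405). At 86.8 kb a region that was barely called in controls, with 14 and 10 tags, had 27 and 50 without Hoxa5 (chr6:32230962-32231810; limma adjusted p = 0.00875). Both kept their direction in each fit that left out a library. At 8.83 kb the tags were 33 and 41 against 75 and 92 (chr6:32152999-32153748; limma adjusted p = 0.0301), and the call ended without control library 1 (0.150) or Hoxa5-deficient library 1 (0.145).

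Plxna2 had 1 region on each side. At 113 kb into the body the tags were 23 and 13 in controls and 40 and 54 without Hoxa5 (chr1:194732613-194733241; limma adjusted p = 0.0303). At 38.9 kb they were 37 and 20 against 16 and 16 (chr1:194658408-194659048; limma adjusted p = 0.0459). Each was called in 1 of the 4 fits that left out a library, the first without control library 1 (otherwise adjusted p from 0.0694 to 0.142) and the other without control library 2 (otherwise from 0.0813 to 0.216). No shared region of Plxna3, Plxnb2 or Plxnd1 passed. At Plxnd1 all 3 shared regions ranked lower in both Hoxa5-deficient libraries than in both controls, as did 32.8% of all shared regions. Their median difference was -11.9 percentile points, with limma adjusted p from 0.101 to 0.535. Scaled to the depth of control library 1, the tags at the Plxnd1 start overlapped (95.0 and 91.6 in controls, 63.4 and 93.3 without Hoxa5).

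**Figure D3:**
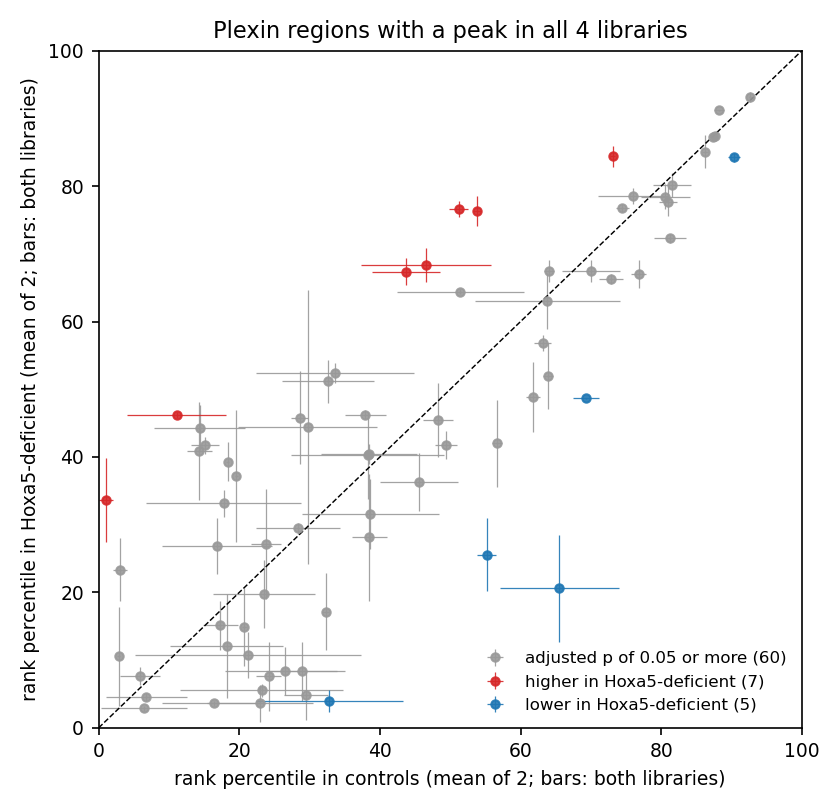
Each point is 1 of the 72 plexin regions with a peak in every library, at its mean rank percentile in controls (horizontal axis) and in Hoxa5-deficient libraries (vertical axis), with bars spanning both libraries of a group. The 7 regions called higher lie above the dashed line of equality and the 5 called lower lie below it, and the other 60 scatter to both sides of it.

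**Figure D4:**
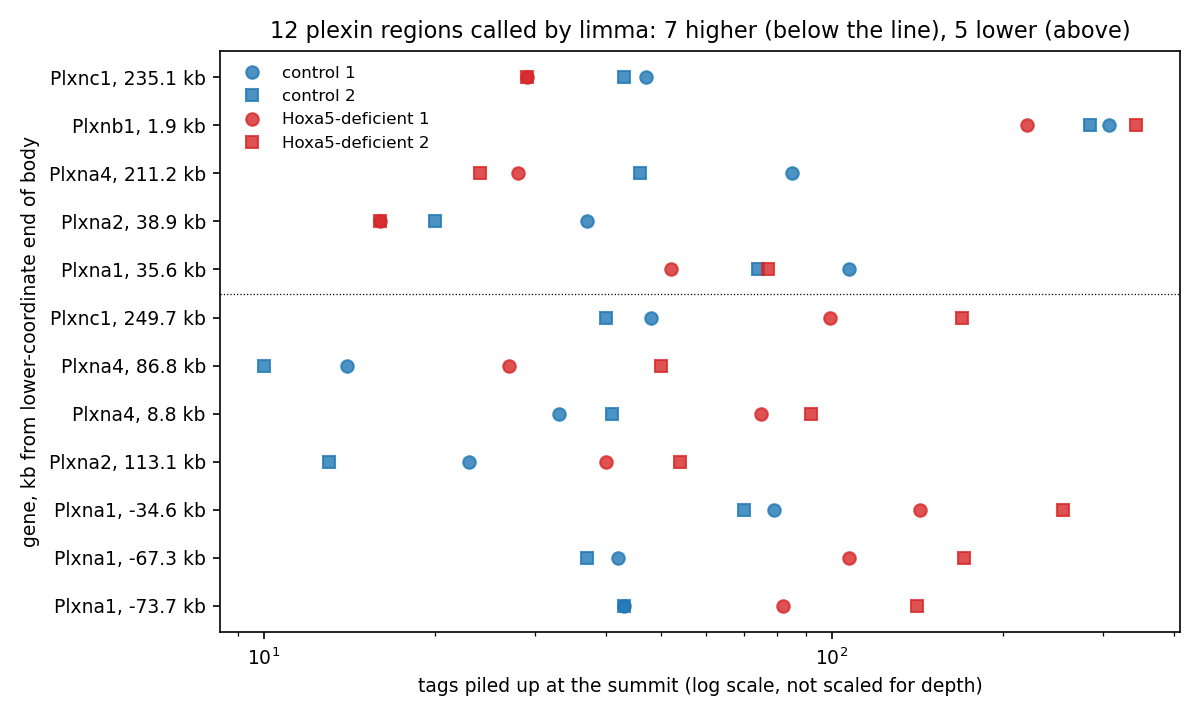
Tags at the summit in each library, on a log axis and without scaling for depth, for the 12 plexin regions called by limma. The 7 regions below the dotted line have more tags in both Hoxa5-deficient libraries than in both controls, while among the 5 above it the tags of Plxnb1 and of Plxna1 overlap between genotypes.

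The ligands and partners of the plexins were described alongside, from lists chosen with earlier results of these data known. The 20 semaphorin genes held 456 regions, of which 14 (3.07%) were control-only and 44 (9.65%) mutant-only, against 3.5% and 9.16% of all assigned regions. Of their 150 shared regions 24 were called higher and 13 lower, with a median rank difference of -0.51 points. The highest control-only count was at Sema6a, a transmembrane ligand of class A plexins, with 4 of 58 regions. Next were Sema6d with 3 of 83 and Sema3a with 2 of 57. The highest mutant-only counts were at Sema5a with 9 of 64 regions and at Sema3a and Sema6d with 6 each. Of the 19 shared regions of Sema5a 6 were called higher and none lower, and of the 24 of Sema6a likewise 6 and none, beside 11.1% and 9.53% over all shared regions. Sema3a had 3 higher and 1 lower of 11, Sema6d 3 and 1 of 15, and Sema5b none higher and 5 lower of 19. Sema7a, the ligand of Plxnc1, had 6 regions with no call, and Sema3e, the ligand of Plxnd1, had 25 regions with 3 mutant-only, none control-only and 1 called higher.

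The 9 co-receptor genes held 249 regions, with 6 control-only (2.41%, against 3.5% of all assigned regions) and 27 mutant-only (10.8%, against 9.16%). Nrp1, the neuropilin that binds Sema3a, had 6 mutant-only regions and none control-only of 29, while of its 11 shared regions 1 was called higher and 2 lower, with a median rank difference of -7.43 points. Nrp2, which binds Sema3f, had 5 mutant-only and 3 control-only regions of 36, with 1 shared region called higher and 1 lower. Kdr had 2 mutant-only and 2 control-only regions of 21, and none of its 6 shared regions was called. Met had 2 mutant-only and 1 control-only of 21, with 2 of its 6 shared regions called higher and none lower. Chl1 and Nrcam, adhesion molecules of the L1 family, had 6 mutant-only regions of 56 and 5 of 66 and none control-only, with 1 region called higher and 2 lower at Chl1 and 3 and 3 at Nrcam. Of the 87 shared regions of this list, 10 were called higher and 8 lower. The 31 effector and regulator genes held 547 regions, with 28 control-only (5.12%, against 3.5%) and 49 mutant-only (8.96%, against 9.16%). Of their 160 shared regions 14 were called higher and 19 lower. Tiam1, an exchange factor of Rac, had 12 mutant-only and 5 control-only regions of 91. Fyn, a kinase downstream of class A plexins, had 8 and 4 of 89, and Farp1 7 and 4 of 57. The remaining plexin, Plxnb3, was in this list, with 4 regions, of which none was found in all libraries and 1 was control-only. The percentage of shared regions called was 24.7% for semaphorins, 20.7% for co-receptors and 20.6% for effectors, beside 16.7% for the plexins and 20.6% for the genome. No test of these differences was made.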

How the data were processed

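The series holds 4 ATAC-seq libraries, 2 control and 2 Hoxa5-deficient, grouped by their titles. Per the submitters' processing notes, reads were handled on the build mm10 with MACS2 2.2.4, Bowtie2 2.3.4.3, FastQC 0.11.9 and SAMtools 1.9; for parameters, filters and any Tn5 shift: not given in the sources used here. Each library has 1 deposited peak list without a header. Each deposited row gives positions, a score capped at 1000, a fold enrichment ratio, and −log10 of the p-value and q-value; these are the authors' values for single peaks. The lowest −log10 p was 2.00, so the lists hold weak peaks. Intervals overlapping by 1 bp were merged and assigned to 21883 protein-coding genes of RefSeq GRCm38.p6. Whole tag pileups met the deposited −log10 p within 0.001 for from 99.9995% to 100% of summits per library. Total reads are unknown. A list percentile is the rank of a peak by −log10 p within its own list.

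Regions with a peak in every library were compared with limma 3.58.1 (R 4.3.3; eBayes with a trend, Benjamini-Hochberg over 65789 regions), in the sense Hoxa5-deficient minus control; each region's strongest peak per library was ranked. This fit was tested on simulated data. Presence was counted without a test, and shares were compared with exact permutation tests (SciPy 1.17.1). Named regions were the group-specific ones (where over 6 of a kind in a gene, the 4 ranked highest by their lower percentile), the called ones, those over starts and the strongest of each gene; of the pathway lists, up to 3 genes with most group-specific regions each way, and other named ligands, co-receptors and neighbouring group-specific regions were chosen after their values were seen. The Plxna2 region with a peak in 3 libraries was also named after its values were seen. The members and lists were chosen with earlier results of these data known. Alternatives were peak thresholds, equal peak numbers, summit windows, ranking by fold, tag pileups, priors, the replicate block and leaving out each library.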

Additional observations from a re-analysis of the deposited data

How the results depend on the processing

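The direction of the plexin share (lower without Hoxa5) held in all alternatives run, which reuse the same 4 libraries and so add no independent support. In the main setting the libraries of the groups overlapped in this share (exact permutation p = 0.667). The 8 gene ends open in all libraries also held, at from 7 to 8. The 13 control-only and 24 mutant-only regions became 6 and 13 at the stricter q-value limit (4.88% and 10.6%, against 4.44% and 12.1% of all). There the regions shared by all libraries went from 72 to 47 (38.2%, against 46.8%). With equal peak numbers mutant-only regions fell to 10 (4.22%, against 6.75%). Without 1 library, counts ran from 16 to 53 control-only and from 34 to 58 mutant-only, since a single library of a group then decides. The control-only share ran from 6.69% to 22.3%, against 5.50% to 15.1% of all assigned regions. The mutant-only share ran from 15.0% to 22.8%, against 13.4% to 23.7%. Shared regions ran from 76 to 89 (30.3% to 39.4%, against 39.3% to 42.0%). Of the 12 limma calls, 0 remained with a prior without a trend, where 4.05% of all shared regions were called. Fits without 1 library leave 1 library in a group, so their numbers of calls are not compared here. Ranking by fold called 8 plexin regions (11.1%, against 14.4% of all shared regions) and tag pileups 17 (23.6%, against 28.9%). At the stricter q-value limit 11 of 47 were called (23.4%, against 19.1%). All changes in the 12 kept their direction in each alternative fit that held them (9 of 12 at the stricter limit). The median rank difference ran from -0.55 to 0.11 without 1 library (above 0 without control library 2), the share difference from -0.0187 to -0.00347 percentage points, and gene ends stayed at 8.

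Replicate numbers are shared by the groups, but the labels do not say that they mark pairs: deviations of same-numbered libraries correlated at -0.00125 over 65789 regions. With the replicate block limma called 15 plexin regions, all 12 among them, with 24.9% called in the genome. Depth limits weak regions, since peaks of 10 to 20 tags lie near the authors' threshold.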
